A study of Mus musculus with 69 samples.

Results

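A set of 9 genes of blood coagulation and fibrinolysis were followed in mouse lung after nano-TiO2 had been instilled into the airways: F3, F7, F10, Plau, Plaur, Plat, Thbd, Tfpi and Procr. They were chosen by symbol for their place in the cascade, with earlier results of these data known. All 9 were on the array, as 9 of the 18656 genes tested. The study compared 69 lungs on 69 arrays, each array holding the lung RNA of 1 mouse in Cy5 against a commercial pool, Universal Mouse Reference RNA, in Cy3. Female C57BL/6 mice, 5 to 7 weeks old on arrival and given 1 to 3 weeks to settle, received a single intratracheal instillation of 18, 54 or 162 µg of NRCWE-025 or of NRCWE-030, 2 nano-TiO2 materials known by code, or of the vehicle alone. The vehicle was water with 2% serum, so every mouse, controls included, was anaesthetised and instilled with it. Lungs were taken after 1 day or after 28 days, which gave 14 groups. Both materials shared 1 vehicle group on each day, and every group held 5 arrays except NRCWE-025 at 162 µg on day 28, which held 4. The values are log2 ratios of lung over reference, so 1 gene can be followed from group to group but the levels of 2 genes cannot be ranked against each other. RNA came from a small frozen section of a whole lung, so fewer cells of a type and less RNA per cell cannot be told apart.

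Coagulation outside the blood starts when tissue factor (F3), a membrane protein that the lung epithelium carries in abundance, binds coagulation factor VII (F7), and the complex activates factor X (F10), the protease that turns prothrombin into thrombin. Tissue factor pathway inhibitor (Tfpi) shuts that complex down, while thrombomodulin (Thbd) and the endothelial protein C receptor (Procr) turn thrombin toward activating protein C, an anticoagulant. Fibrin is removed by plasmin, which urokinase (Plau) and tissue plasminogen activator (Plat) release from plasminogen. The urokinase receptor (Plaur) holds urokinase at the cell surface, chiefly of leukocytes and injured epithelium. Fibrin laid down in the air spaces and its removal belong to the known picture of lung injury.

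The 9 genes were read by 15 probes, 2 each for F3, Plau, Plaur and Plat, 3 for Tfpi and 1 each for F7, F10, Thbd and Procr. All but 3 of the probes were well above background in the lung channel on all 69 arrays. These were both Plau probes (A_52_P302433 on 53 arrays, A_51_P305311 on 1) and the Tfpi probe A_52_P631889 (on 44). Across the arrays 49.1% to 72.8% of the spots were well above background and none was saturated. The markers fitted a lung, since all 11 endothelial, 6 type 2 and 5 type 1 alveolar markers tested were well above background on every array. None of the 5 hepatocyte markers (Alb, Apoa1, Ahsg, Apoh and Ttr) was so on every array, and Ttr on just 3, but their mean log2 ratio was uneven, from 0.02 to 3.20. It averaged 0.14 and 0.13 in the vehicle groups of day 1 and day 28 and more in every treated group, up to 1.73 at 54 µg of NRCWE-025 on day 1. Heart muscle markers were also present and uneven, their mean log2 ratio running from 0.43 to 5.10 with a median of 1.58. The array of replicate 3 of NRCWE-030 at 18 µg on day 1 stood apart. It had the lowest type 1 and type 2 alveolar marker means of the 69 arrays, the highest smooth muscle mean, the highest F7, Plaur and Procr values and the second lowest Thbd value, and its group held the lowest correlation between replicates, 0.85 over all genes, where the lowest of each other group was 0.90 to 0.95. Low Thbd and high Procr were also read in 3 more arrays, namely replicate 5 of NRCWE-030 at 54 µg on day 1, replicate 4 of NRCWE-025 at 162 µg on day 1 (the second highest Plaur value of the 69) and replicate 5 of NRCWE-025 at 54 µg on day 28 (the lowest Thbd and F10 values and the lowest macrophage and neutrophil marker means).

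Of the 9 genes Plaur alone rose by a test that covers all genes, and only at 162 µg of NRCWE-025 on day 1, where it was 1.55-fold higher than in the vehicle lungs (95% interval 1.3 to 1.86, adjusted p = 0.039). At the same dose and day of NRCWE-030, the Plaur mean was 1.64-fold and the F10 mean 1.57-fold that of vehicle, with every treated lung above every vehicle lung and adjusted p of 0.072 and 0.052. Most of the members had a mean above vehicle at 162 µg on day 1, 8 of 9 for each material. Thbd was the 1 below it in both. The median member difference there was 0.22 with NRCWE-025 and 0.21 with NRCWE-030 on the log2 scale, against -0.0001 and 0.0045 over all genes. These 2 comparisons share their 5 vehicle arrays. The tilt was not particular to 162 µg. At 18 and 54 µg on day 1, 7 of 9 were higher each time with NRCWE-025 (medians 0.12 and 0.28). With NRCWE-030 it was 8 of 9 each time (0.21 and 0.18), against the same vehicle arrays. In vehicle lungs alone, 7 of 9 were higher on day 28 than on day 1, with a median of 0.20. The part of a low day 1 vehicle group in these counts was not tested. The 8 of 9 at 162 µg fell to 6 of 9 for NRCWE-025 with the local backgrounds as deposited. F7 and F10 then lay below vehicle. With slide as a fixed block it fell to 6 of 9 for NRCWE-025 (F3 and Plat also below) and to 7 of 9 for NRCWE-030 (Plat also below).

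**Figure D1:**
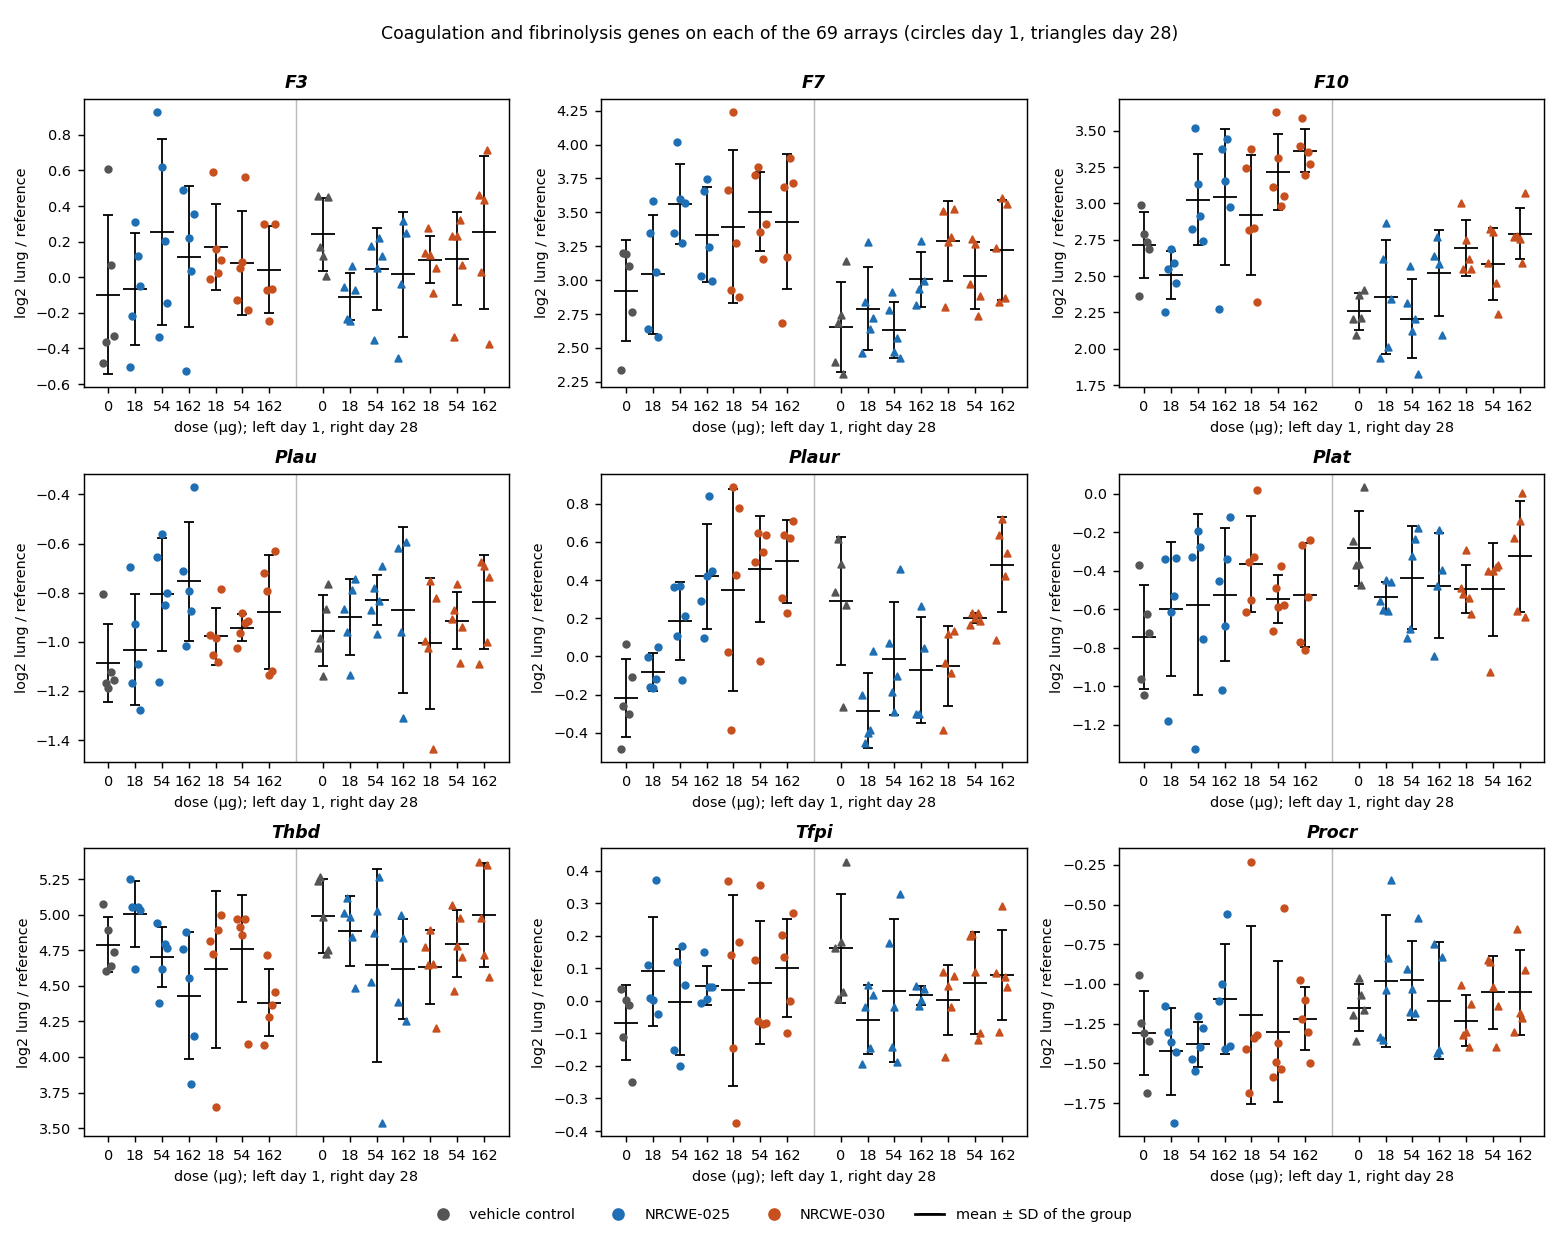
Log2 ratio of lung over reference for the 9 genes, 1 panel per gene, with 1 point for each of the 69 arrays (circles for day 1, triangles for day 28) and the mean ± SD of each group of 4 or 5 arrays drawn beside its points. The Plaur points at 162 µg on day 1 lie between 0.10 and 0.84, above the 5 vehicle points of that day, which end at 0.06.

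The members' calls have to be read against how few genes moved at all. Over the 3 doses and vehicle together, the moderated F-test called 0.0214% of genes for NRCWE-025 on day 1, 0.0268% on day 28, 0.954% for NRCWE-030 on day 1 and 0.102% on day 28, and it called no member. Plaur came closest, with an adjusted p of 0.094 for NRCWE-025 on day 1. Dose by dose, NRCWE-025 on day 1 gave 0% of genes called at 18 and 54 µg and 0.209% at 162 µg, and of the members 0, 0 and 1. On day 28 it gave 0.059%, 0.0268% and 0.0161%, with no member. NRCWE-030 gave 0.00536%, 0.0804% and 1.69% on day 1 and 0.118%, 0.0536% and 0.0965% on day 28, again with no member. Counted by raw p under 0.05 in the F-tests, 5, 1, 2 and 3 members passed in that order of material and day, beside 9.98%, 5.77%, 11.2% and 7.07% of all genes.

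Within each gene the group means followed each other closely. None of the 117 steps between neighbouring group means, 13 for each gene, was as large as that gene's pooled SD within groups. Sorted means of 14 groups lie close to each other whether or not groups differ, so the steps cannot decide whether they do. The whole span of group means was 4.09 pooled SDs for F10, 2.94 for Plaur and 2.62 for F7. It was between 1.13 and 1.73 for the other genes, with F3 the narrowest. F10 ran from NRCWE-025 at 54 µg on day 28 (2.21) up to NRCWE-030 at 162 µg on day 1 (3.36), and its 3 highest means were all of treated groups on day 1. Plaur ran from NRCWE-025 at 18 µg on day 28 (-0.28) up to NRCWE-030 at 162 µg on day 1 (0.50). Its second highest mean was that of the same dose of NRCWE-030 on day 28, at 0.48. Plau, Plat and Tfpi had their lowest mean in the day 1 vehicle group, and Plat and Tfpi their highest in the day 28 vehicle group.

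Of Plau, Plat and Plaur, the members tied to fibrin removal, only Plaur held a call, at 162 µg of NRCWE-025 on day 1. In the 5 vehicle lungs of day 1 its log2 ratio was -0.48, -0.26, 0.06, -0.30 and -0.11. At 162 µg of NRCWE-025 it was 0.29, 0.10, 0.42, 0.84 and 0.45, all above every vehicle lung. At 162 µg of NRCWE-030 it was 0.30, 0.64, 0.23, 0.62 and 0.71, again with no overlap. Over all genes, 2.09% had the treated lungs all on one side of the vehicle lungs for NRCWE-025 on day 1 and 4.55% for NRCWE-030. The difference was 0.64 (SE 0.12, 95% interval 0.38 to 0.90) for NRCWE-025, the 27th smallest p of 18656 genes, and 0.72 (SE 0.20, interval 0.30 to 1.13) for NRCWE-030. The means lay in the order of dose for both materials on day 1, but a trend was not tested. They were -0.22 with vehicle, then -0.08, 0.19 and 0.42 at 18, 54 and 162 µg of NRCWE-025. At the same doses of NRCWE-030 they were 0.35, 0.46 and 0.50. The SDs of those NRCWE-030 groups, 0.53, 0.28 and 0.22, were wider than the steps between their means. The differences at 54 µg, 0.40 (adjusted p = 0.49) and 0.68 (adjusted p = 0.21), did not pass the test. At 18 µg of NRCWE-030 the lungs were spread from -0.38 to 0.89, the highest being the array that stood apart. Both Plaur probes gave the same size of difference at 162 µg of NRCWE-025, 0.63 for A_52_P681310 (adjusted p = 0.040 over all probes) and 0.64 for A_51_P112405 (adjusted p = 0.11), and over the 69 arrays they correlated at r = 0.90.

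The Plaur call at 162 µg of NRCWE-025 was near the threshold. It was kept with slide as a random block (0.60, adjusted p = 0.029) and lost with slide as a fixed block (0.51, adjusted p = 0.41) or scan day as one (0.60, adjusted p = 0.17). On the 2 slides that held 1 lung of each group the differences were 0.03 and 0.78. Leaving out 1 array at a time gave 0.53 to 0.72, and the call was lost without 162 µg replicate 4 or 5, vehicle replicate 1, 2, 4 or 5, or 18 µg replicate 3 or 4, with adjusted p from 0.050 to 0.12. Replicate 4, the highest of the 5 treated lungs, is 1 of the 4 arrays named above, and without it the difference was 0.53 (adjusted p = 0.10). The treated group also had the lowest share of spots well above background of the 14 groups, 55.4% (SD 3.7) against 61.5% (SD 4.2) in the day 1 vehicle group, and the part of this in the Plaur call was not tested. For NRCWE-030 the lungs that shared a slide differed by 0.34 and 0.60. The NRCWE-030 difference of 0.72 passed the test without the 18 µg array that stood apart (adjusted p = 0.040). It also passed without 18 µg replicate 2 (adjusted p = 0.028). Both arrays enter only the shared estimate of spread. With any other single array left out the difference did not pass.

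On day 28 Plaur was not above vehicle for NRCWE-025. The vehicle lungs now gave 0.34, 0.62, 0.48, -0.26 and 0.27, and the 4 lungs at 162 µg of NRCWE-025 gave -0.30, -0.30, 0.27 and 0.05. The difference was -0.36 (95% interval -0.73 to 0.01, adjusted p = 0.69), and at 18 µg it was -0.57 (interval -0.92 to -0.23, adjusted p = 0.27), where 3 of the 5 lungs lay below every vehicle lung. With NRCWE-030 at 162 µg the lungs gave 0.09, 0.64, 0.72, 0.42 and 0.54, and the difference was 0.19 (interval -0.10 to 0.48, adjusted p = 0.81). The vehicle lung at -0.26 was below the other 4, which lay at 0.27 to 0.62. On day 28 the share of all genes without overlap at 162 µg was 2.29% for NRCWE-025 and 2.11% for NRCWE-030, and of the members 0 and 1.

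A promoter window of Plaur is shown with those of F7 and F10. Plaur held the only call, and F7 and F10 are neighbours on chromosome 8 whose values moved together. The windows are the 250 bases before a RefSeq transcript start in GRCm38.p6, all on the plus strand, written 5′ to 3′ with motif matches in capitals. They lie at chr7:24462233-24462482 (Plaur), chr8:13025784-13026033 (F7) and chr8:13037058-13037307 (F10).
Plaur: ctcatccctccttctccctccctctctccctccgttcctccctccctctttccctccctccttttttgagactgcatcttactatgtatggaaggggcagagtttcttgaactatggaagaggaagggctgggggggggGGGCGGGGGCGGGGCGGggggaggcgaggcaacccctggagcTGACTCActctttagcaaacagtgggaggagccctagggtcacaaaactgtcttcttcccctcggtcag
F7: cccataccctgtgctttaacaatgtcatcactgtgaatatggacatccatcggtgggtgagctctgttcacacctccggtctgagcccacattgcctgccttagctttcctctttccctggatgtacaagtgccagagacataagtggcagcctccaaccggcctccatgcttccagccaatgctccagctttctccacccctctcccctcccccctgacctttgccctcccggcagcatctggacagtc
F10: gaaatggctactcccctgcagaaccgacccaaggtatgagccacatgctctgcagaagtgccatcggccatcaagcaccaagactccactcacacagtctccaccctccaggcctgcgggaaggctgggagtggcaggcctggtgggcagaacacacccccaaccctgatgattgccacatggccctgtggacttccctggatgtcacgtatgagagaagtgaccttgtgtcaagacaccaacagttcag
Both strands were searched for NF-kB, by its consensus, and for 4 shorter motifs. AP-1 was TGANTCA, which reads the same on both strands. The GC box was GGGCGG. The STAT motif was TTCNNNGAA. The TATA box was TATAAA. In the Plaur window the first capitals are 3 GC boxes end to end, starting 111, 105 and 100 bases before the start and of which the last 2 share 1 base, and the second are an AP-1 match starting 69 bases before it. The F7 and F10 windows held none of the 5 motifs. Of the 32851 windows of all genes, 6.75% held AP-1, 32.7% the GC box, 7.02% STAT, 12.4% TATA and 3.9% NF-kB. Windows were at hand for 6 of the 9 genes, not for Plau, Plat or Thbd. AP-1 was also matched in those of F3 (146 and 135 bases before the start) and Procr (154 bases). A gene can have other starts than the one used. The Plaur and F7 windows lie inside the annotated genes, which begin at 24460937 and 13025506. They precede a later start, and the bases before the first start were not searched.

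The activators themselves stayed nearer to vehicle. Urokinase, Plau, was dim: on day 1 the brighter probe differed by 0.49 at 162 µg of NRCWE-025 (adjusted p = 0.48) and by 0.29 with NRCWE-030 (adjusted p = 0.68), and the dim one allows no fold. By the brighter probe the vehicle lungs of day 1 gave -1.18, -1.93, -2.25, -1.91 and -2.0, and the 162 µg lungs of NRCWE-025 gave -1.34, -1.92, -1.51, -1.41 and -0.64, with the probe well above background in 4 and 3 lungs. Only 1 of the treated lungs lay above every vehicle lung. The 2 Plau probes correlated at only r = 0.17, and the Plau value in the plots and in the counts of members is the median of both, so it includes the dim one. Tissue plasminogen activator, Plat, an endothelial product, was 0.22 above vehicle at 162 µg on day 1 with each material, with 95% intervals of -0.22 to 0.67 for NRCWE-025 and -0.08 to 0.52 for NRCWE-030. Its largest difference was 0.38 at 18 µg of NRCWE-030 on day 1 (interval 0.08 to 0.68, adjusted p = 0.61). On day 28 the 6 Plat differences lay between -0.25 and -0.04, with adjusted p from 0.59 to 0.97.

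In the initiating complex F10 stood out. In the day 1 vehicle lungs F10 was 2.37, 2.99, 2.79, 2.73 and 2.69. At 162 µg of NRCWE-030 it was 3.39, 3.59, 3.20, 3.35 and 3.27, so all 5 lay above every vehicle lung. The difference was 0.65 (SE 0.17, 95% interval 0.30 to 1.00), and its adjusted p of 0.052 missed the threshold. It fell to 0.027 with slide as a random block and to 0.021 with backgrounds as deposited. With slide as a fixed block it was 0.18, where the difference was 0.73, and with scan day as one 0.22. Without the 18 µg array that stood apart the adjusted p was 0.028, without 18 µg replicate 5 0.022 and without 54 µg replicate 2 0.043. With any other single array left out F10 did not pass. On the 2 slides that held both groups F10 was 0.51 and 0.66 higher. At 18 and 54 µg it was 0.21 (adjusted p = 0.85) and 0.50 (adjusted p = 0.29) above vehicle.

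With NRCWE-030, F10 lay above vehicle at 28 days as well. The day 28 vehicle lungs gave 2.20, 2.10, 2.37, 2.21 and 2.41, and the 162 µg lungs 2.77, 2.77, 2.75, 2.59 and 3.07. Again no treated lung overlapped, the difference was 0.53 (95% interval 0.29 to 0.78, adjusted p = 0.096), and the 3 slides holding a lung of each group gave 0.56, 0.41 and 0.35. At 18 µg it was 0.44 (adjusted p = 0.16), also without overlap, as for 1.85% of all genes there, and at 54 µg 0.33 (adjusted p = 0.60). For NRCWE-025 the F10 differences at 162 µg were 0.33 on day 1 (interval -0.05 to 0.72, adjusted p = 0.49) and 0.26 on day 28 (interval -0.11 to 0.64, adjusted p = 0.80). With the backgrounds as deposited the day 1 value was -0.16.

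F7, which the liver makes for the blood and which lung cells also transcribe, had wider errors. On day 1 the vehicle lungs were 2.34, 3.20, 3.20, 3.11 and 2.76. The largest difference was at 54 µg of NRCWE-025, where the lungs gave 3.35, 4.02, 3.60, 3.27 and 3.57, all above the vehicle lungs, as for 1.15% of all genes on one side or the other. That was 0.64 (95% interval 0.20 to 1.09) with an adjusted p of 0.56, in a comparison that called no gene. The hepatocyte marker mean was highest in this group, at 0.25 to 2.84 against 0.08 to 0.27 in vehicle lungs, with 5 of 5 markers higher, a median difference of 1.48 and none called. Within groups it correlated with F7 at -0.13 and with F10 at 0.09, coefficients that leave out the differences between groups. The part of hepatocyte RNA in the F7 values was not tested. At 162 µg on day 1 F7 was 0.41 higher with NRCWE-025 (adjusted p = 0.45; -0.19 with backgrounds as deposited) and 0.51 with NRCWE-030 (adjusted p = 0.44). On day 28 NRCWE-030 gave 0.63, 0.38 and 0.57 at 18, 54 and 162 µg (adjusted p = 0.20, 0.77 and 0.40).

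Tissue factor and its inhibitor did not separate from vehicle. F3 spread widely among vehicle lungs of day 1, from -0.48 to 0.61, and its differences at 162 µg were 0.21 and 0.14 on day 1 and -0.22 and 0.01 on day 28, NRCWE-025 first. The interval for NRCWE-025 on day 1 ran from -0.30 to 0.73 and that for NRCWE-030 from -0.25 to 0.53. With NRCWE-025 F3 differed by 0.35 at 54 µg on day 1 (adjusted p = 0.88) and by -0.35 at 18 µg on day 28, with 4 of 5 lungs below every vehicle lung (adjusted p = 0.46). Tfpi differed by 0.11 and 0.17 at 162 µg on day 1 and by -0.14 and -0.08 on day 28, and the widest of these 4 intervals was -0.09 to 0.42. Its 3 probes did not follow each other, with r between 0.01 and 0.06 over the 69 arrays. The probe A_52_P670263, annotated to another transcript than the other 2, was 0.27 below vehicle at 162 µg of NRCWE-025 on day 28 (adjusted p = 0.63 over all probes).

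On the protein C side, Thbd was the 1 member below vehicle at 162 µg on day 1 with both materials. The vehicle lungs gave 5.07, 4.60, 4.89, 4.64 and 4.74. NRCWE-025 lungs gave 4.76, 4.88, 4.55, 3.81 and 4.15, of which 3 lay below every vehicle lung, and NRCWE-030 lungs 4.08, 4.72, 4.28, 4.37 and 4.46, of which 4 did. The differences were -0.36 (95% interval -0.71 to -0.004, adjusted p = 0.40) and -0.41 (interval -0.86 to 0.04, adjusted p = 0.46). On 2 slides each, lungs that shared a slide differed by -0.01 and -0.31 and by -0.46 and -0.55. By day 28 they were -0.37 for NRCWE-025 (interval -0.92 to 0.17) and 0.004 for NRCWE-030 (interval -0.34 to 0.35). The endothelial markers as a list had a median difference of -0.01 and -0.09 at 162 µg on day 1, with 5 of 11 higher and none called. The type 2 alveolar marker mean was 4.32 in vehicle lungs and 4.08 and 4.14 at that dose, with 6 of 6 and 4 of 6 markers lower, and the type 1 mean was 4.28 against 4.13 and 4.07, with 3 of 5 lower each time and none called. The part of endothelial and alveolar cells in the Thbd values was not tested. Procr differed from vehicle by 0.21 and 0.09 at 162 µg on day 1 and by 0.04 and 0.10 on day 28, with intervals reaching from -0.39 to 0.57.

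**Figure D2:**
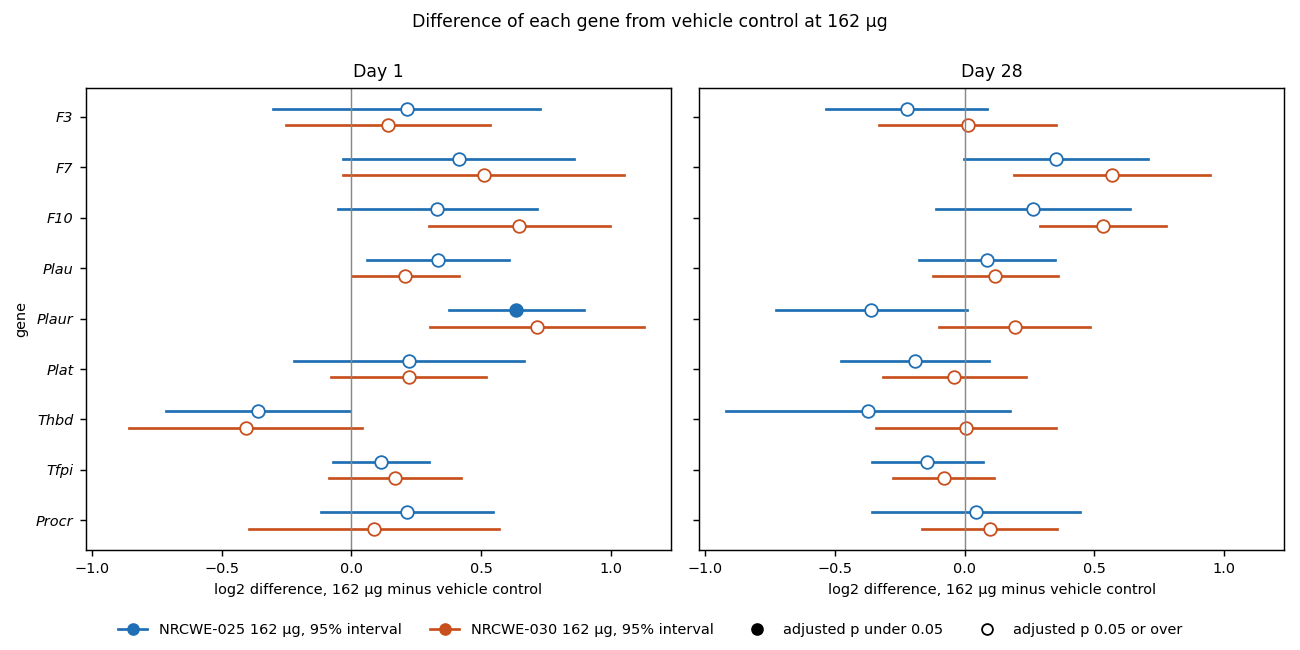
Difference from the vehicle lungs of the day at 162 µg, as log2 with its 95% interval, for each of the 9 genes, each material and each day, where a filled point marks an adjusted p under 0.05 over all genes. The single filled point is Plaur with NRCWE-025 on day 1 at 0.64, and the Thbd points of day 1 lie at -0.36 and -0.41.

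The materials were also set against each other directly, at equal mass and day, with the shared vehicle cancelling. The F-test over the 3 doses called 0.155% of genes on day 1 and 0.241% on day 28, and no member. Plaur on day 28 had the smallest p among the members, with NRCWE-030 above NRCWE-025 by 0.55 at 162 µg (95% interval 0.20 to 0.90, adjusted p of the F-test 0.42). On day 1 the same difference was 0.08 (interval -0.25 to 0.41). F10 was higher with NRCWE-030 at all 3 doses on both days, by 0.19 to 0.41, and the F-tests gave adjusted p of 0.55 and 0.64. On day 28 all 9 members had a higher mean with NRCWE-030 at 162 µg, by 0.03 to 0.55 and with a median of 0.22, where the median of all genes was 0.002. None of these 9 passed the test. The lower doses of day 28 were mixed. At 18 µg Plau, Thbd and Procr were lower with NRCWE-030 (-0.11, -0.25 and -0.25). At 54 µg Plau, Plat and Procr were lower (-0.08, -0.06 and -0.08), and the other members were higher each time. In the 162 µg comparison of day 28, 10 of 11 endothelial markers were higher (median 0.19), as were 8 of 11 of macrophages and monocytes (0.22). So were 6 of 6 of type 2 cells (0.12) and 5 of 5 of hepatocytes (0.35). None of these markers was called, and their part was not tested.

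A change that differs between the days was tested as the 162 µg difference on day 1 minus that on day 28, which called 0.059% of genes for NRCWE-025 and 0.198% for NRCWE-030, and no member. Plaur with NRCWE-025 came closest, at 1.00 (95% interval 0.52 to 1.48, adjusted p = 0.082). Of that, 0.64 was the day 1 difference and 0.36 the opposite difference on day 28. With slide as a fixed block it was 0.89 and passed (adjusted p = 0.030), as it did at 0.94 with scan day (adjusted p = 0.013). With NRCWE-030 the Plaur value was 0.53 (interval 0.06 to 0.99, adjusted p = 0.56). Of each Plaur value, 0.51 was the rise of the vehicle mean from -0.22 on day 1 to 0.29 on day 28. The 162 µg means of NRCWE-025 were 0.42 on day 1 and -0.07 on day 28. Those of NRCWE-030 were the highest and second highest of all Plaur group means, on day 1 and day 28. The other members lay between 0.01 and 0.44 for NRCWE-025 and between -0.41 and 0.26 for NRCWE-030. In vehicle lungs alone, day 28 against day 1 called 0.0375% of genes and no member. Plaur was 0.51 and Plat 0.46 higher on day 28, and F10 was 0.46 lower, with adjusted p of 0.32, 0.38 and 0.42. With scan day as a fixed block F10 was 0.63 lower and Plaur 0.59 higher, with adjusted p of 0.033 and 0.040. Day is hardly separated from slide here, since only 1 of the 19 slides held lungs of both days.

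The rest of the pathway was looked at through a list of 52 other genes of clotting, its inhibitors, fibrinolysis and their receptors, all tested, 23 of them well above background on every array and 7 on fewer than 5. Of these 52 genes, 2 were called at 162 µg. With NRCWE-030 it was 1 on day 1, where 1.69% of all genes were called, and 1 on day 28, where 0.0965% were. Vldlr, a receptor that clears complexes of proteases and inhibitors, fell by 0.63 with NRCWE-030 on day 1 (adjusted p = 0.0095), from vehicle lungs at 0.68 to 0.99 to treated lungs at -0.22 to 0.38. Serpind1, the thrombin inhibitor heparin cofactor II, rose by 0.83 with NRCWE-030 on day 28 (adjusted p = 0.017), from a median of 1.12 in vehicle lungs to treated lungs at 1.67 to 2.05, all above the vehicle lungs. Serpind1 is made chiefly in the liver, and the hepatocyte marker mean was 0.09 to 1.81 in those treated lungs against 0.05 to 0.22 in the vehicle lungs. Its part was not tested.

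**Figure D3:**
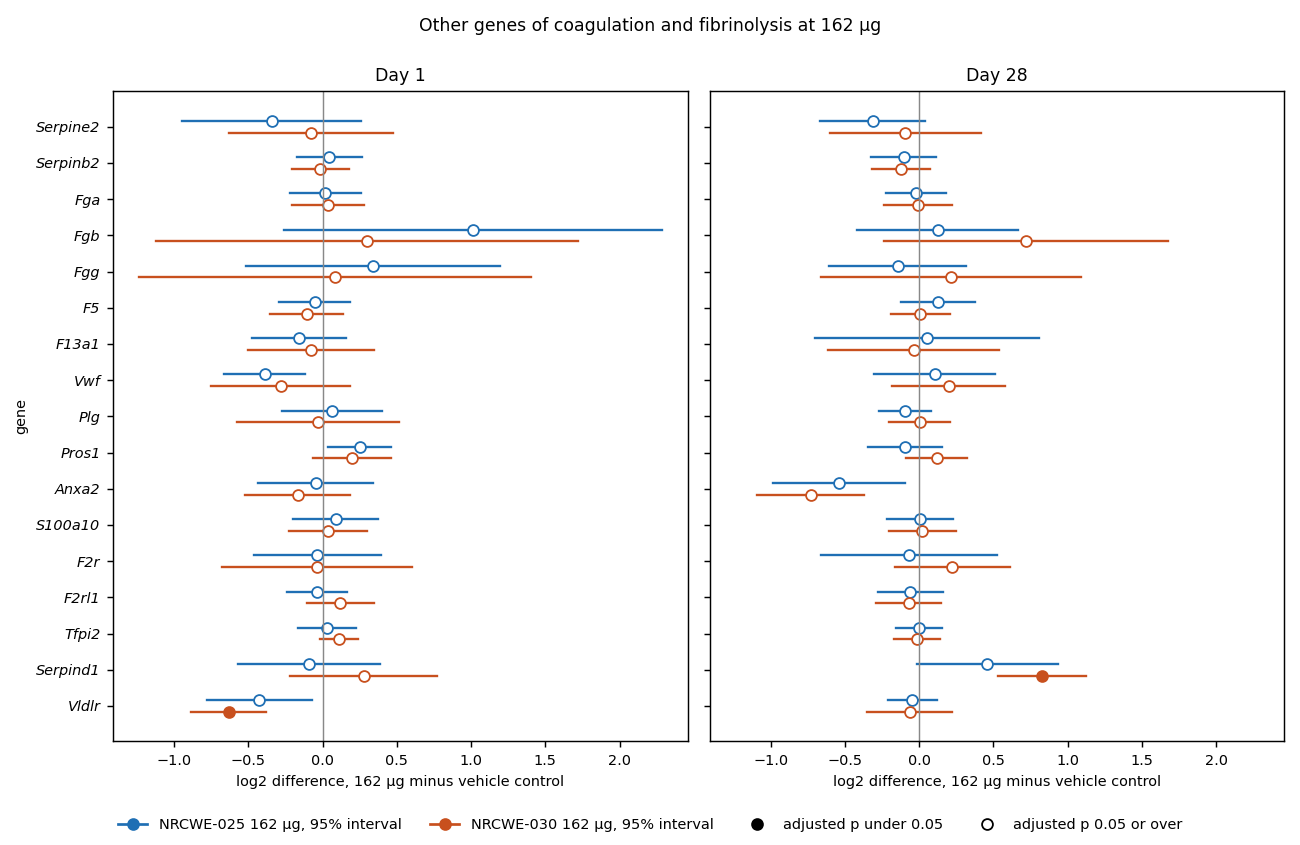
Difference from vehicle at 162 µg, as log2 with its 95% interval, for 17 other genes of clotting and fibrinolysis, by material and day, where filled points passed the test over all genes. The filled points are Vldlr (-0.63) with NRCWE-030 on day 1 and Serpind1 (0.83) with NRCWE-030 on day 28.

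Over the 52 genes the median difference at 162 µg was 0.014 on day 1 and 0.0034 on day 28 with NRCWE-025, and 0.0048 and 0.035 with NRCWE-030. In that order 27, 27, 26 and 31 genes were higher. The calls were 1 on each day with NRCWE-030, beside 1.69% and 0.0965% of all genes, and none with NRCWE-025. Of the fibrinogen chains, made chiefly in the liver, Fga was well above background on 2 arrays, Fgb on 32 and Fgg on 65. The Fgb difference of 1.01 with NRCWE-025 on day 1 had an interval from -0.26 to 2.28, in lungs whose hepatocyte marker mean was 0.13 to 1.66 against 0.08 to 0.27 with vehicle, and the part of that was not tested. Von Willebrand factor (Vwf), stored by endothelium and platelets, was 0.39 lower with NRCWE-025 on day 1 (adjusted p = 0.21). Anxa2, a cell surface partner of Plat and plasminogen, was 0.73 lower with NRCWE-030 on day 28 in all 5 lungs (adjusted p = 0.15), while its partner S100a10 differed by 0.02. Plasminogen itself (Plg) and the thrombin receptor relative F2rl1 were well above background on 23 and 22 arrays, Serpinb2 on 12 and Tfpi2 on 1, and none of the 4 was called. F5, F13a1, Pros1, F2r and Serpine2 differed by -0.34 to 0.25 at 162 µg, and none was called.

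Some members varied together from lung to lung. F7 and F10 correlated at r = 0.78 over the 69 arrays and at 0.64 once group means were removed. Thbd and Procr ran opposite, at r = -0.48 and -0.60. F3 and Plat followed at 0.52 and 0.49. Of the 36 member pairs, these 3 had the largest within-group coefficients. Arrays share slides and a common reference, so these coefficients are descriptions. Without the 2 arrays of NRCWE-030 named above the Thbd and Procr value within groups was -0.44, that of F7 and F10 0.61 and that of F3 and Plat 0.50. Without all 4 arrays of low Thbd and high Procr these were -0.30, 0.63 and 0.50. Those arrays were picked by their Thbd and Procr values, so a weaker coefficient of that pair without them was bound to follow.

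**Figure D4:**
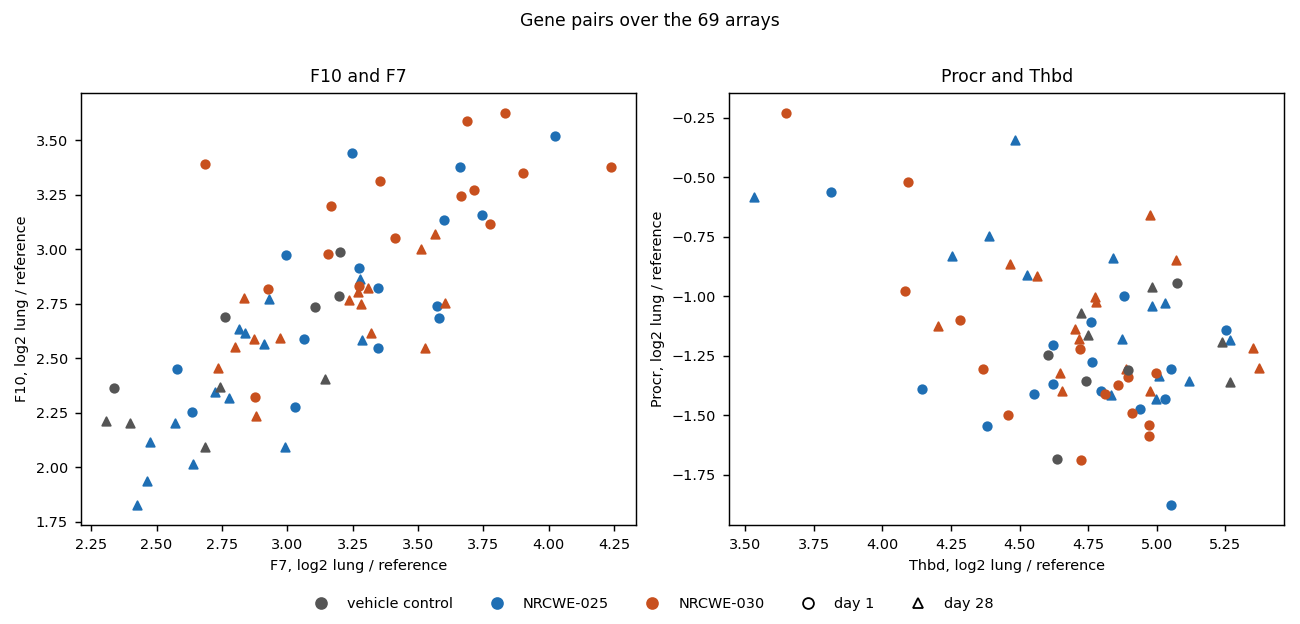
Log2 ratio of F10 against F7 and of Procr against Thbd, each point 1 of the 69 arrays. F7 and F10 rise together (r = 0.78) and Thbd and Procr run opposite (r = -0.48), with a few arrays of low Thbd and high Procr lying off the main group of points.

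Markers of other cells moved with some of these values. The mean of 11 macrophage and monocyte markers, of which 10 were well above background on all arrays and Msr1 on 64, correlated within groups with F10 at 0.68 and with F7 at 0.64 (0.71 and 0.71 without the 2 arrays of NRCWE-030). Per group that mean ran from 2.12 to 2.47 in day 1 vehicle lungs, from 2.19 to 2.58 at 162 µg of NRCWE-030 on day 1, from 2.01 to 2.45 in day 28 vehicle lungs and from 2.37 to 2.60 at 162 µg of NRCWE-030 on day 28. In that last comparison 10 of the 11 markers were higher, by a median of 0.34, and none was called. On day 1 6 of 11 were higher, by a median of 0.06, and Msr1 was called (0.98, adjusted p = 0.0069). With NRCWE-025 the list medians were -0.03 and 0.08. The part of these cells in the F10 and F7 values was not tested. Of the 10 neutrophil markers Csf3r alone was called, 1.25 higher at 162 µg of NRCWE-030 on day 1 (adjusted p = 0.0026), with a list median of 0.06 there and of -0.01 for NRCWE-025, while Elane was well above background on 1 array. The neutrophil and macrophage means correlated with Plaur within groups at -0.04 and -0.08, and the largest coefficients were -0.49 for the platelet, -0.46 for the type 2 and -0.44 for the fibroblast markers. At 162 µg on day 1, NRCWE-025 first, 6 and 3 of 8 platelet markers were higher, and 4 of 6 fibroblast markers were lower with each material, by medians of -0.38 and -0.37. The fibroblast mean was 0.52 to 1.04 in vehicle lungs, 0.25 to 0.83 with NRCWE-025 and 0.37 to 0.88 with NRCWE-030, where Pdgfra was called (-0.55, adjusted p = 0.046). The part of these cells in the Plaur values was not tested. Procr followed the heart muscle markers at 0.65 and ran opposite to the alveolar type 1 markers at -0.66, and Thbd followed the type 2 markers at 0.54 (0.59, -0.54 and 0.40 without the 2 arrays, and 0.63, -0.56 and 0.24 without the 4). The part of these cell types in the Procr and Thbd values was not tested.

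The genes whose values were most like a member's over the 69 arrays were sought among 11001 genes well above background on all of them. For Plaur they were Plk3 (r = 0.75), Rpl7l1 (0.74) and Caskin2 (0.74), and for F10 they were Ffar2 (0.81), Ccl17 (0.81) and Lcn2 (0.81). F7 had Klhdc4 (0.71), Itgax (0.69) and Ffar2 (0.66), and Itgax is 1 of the macrophage markers above. Thbd was followed by Nhlrc2 (0.82), Gnaq (0.81) and Selenop (0.80), Procr by Slc16a3 (0.81), Elof1 (0.79) and Fam216a (0.77), and Plat by Rsc1a1 (0.82), Ddx50 (0.79) and Nsmce3 (0.78). Ddx50 (0.67) also led for F3, before Errfi1 and Polr2b (both 0.67), while Plau had Sgpl1, Cyp51 and Atad2 at 0.70 to 0.73. Tfpi was followed least closely, by Mgp (0.51), Mfap4 (0.50) and Sbno1 (0.50).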

How the data were processed

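Lung RNA of 69 mice was labelled with Cy5 and hybridised beside Cy3-labelled reference RNA to Agilent whole mouse genome arrays, with no dye swap, so a dye effect common to all arrays cancels between groups. The authors deposited scanner output of Agilent Feature Extraction 11.0.1.1, with spot and local background intensity in both channels, flags (0 or 1) for outliers, saturation and spots well above background, and the scanner's log10 ratio. A deposited series table of log2 ratios with normalization by the authors was used as an alternative. Number of arrays limits the precision. Nothing in the labels beyond 1 mouse per array ties samples to litters or cages.

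Local backgrounds that the software marked as outliers were replaced by the median of the array's other backgrounds, because with the deposited backgrounds the normexp fit failed on some arrays (lowest fitted Cy5 background mean -259, against -14.4). Then normexp (offset 50) and loess within arrays were applied in limma 3.58.1 (R 4.3.3), control spots were left out, and medians were taken over the spots of a probe and the probes of a symbol. Of 41174 probes 27479 carried a symbol, and 18656 genes were tested. Each material and day was fitted with its vehicle group by a moderated F-test over the doses and by contrasts, and materials, days and vehicle groups in fits of all 14 groups. All tests were two-sided with Benjamini-Hochberg adjustment over all genes, and a call is an adjusted p under 0.05. Simulated data with known changes were used to test the fit. Members and gene lists were chosen with earlier results of these data known. Every member is named, as are the list genes that passed the test, a fixed set of genes in the wider list and the 3 genes most correlated with each member. Alternatives were the background method, the ordinary F-statistic, the scanner's and the authors' ratios, slide and scan day as blocks, probe choice, a filter on dim probes, 1 fit of all groups and leaving out each array. Leaving 2 or 4 arrays that stood apart out of the correlations was chosen after seeing the data. A gene of the wider list is not reported here, and the list's counts leave it out. Promoter windows are RefSeq's (GRCm38.p6). Figures were drawn with matplotlib 3.10.9.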

Additional observations from a re-analysis of the deposited data

Results flagged for a closer look

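In 8 of 126 groups of 4 or 5 lungs, 1 lung lay far from the others, where chance alone would give about 1 in 20. Thbd was 3.65 in replicate 3 of NRCWE-030 at 18 µg on day 1, with the other lungs at 4.72 to 5.00, and 4.09 in replicate 5 at 54 µg, with the others at 4.86 to 4.97. The same 2 lungs were apart for Procr, at -0.23 (others -1.69 to -1.32) and -0.52 (others -1.59 to -1.37). F3 was 0.59 in replicate 2 of NRCWE-030 at 18 µg on day 1, with the others at -0.01 to 0.16. Plaur was -0.025 in replicate 3 of NRCWE-030 at 54 µg on day 1, with the others at 0.49 to 0.65. Plat was -0.93 in replicate 2 of NRCWE-030 at 54 µg on day 28, with the others at -0.40 to -0.37. Plau was -0.81 in replicate 1 of the day 1 vehicle group, with the others at -1.19 to -1.12.

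In 7 of 54 pairs of days, each pair 1 gene at 1 dose of 1 material, every treated lung lay on one side of the vehicle mean on day 1 and on the other on day 28. The same was looked for in 54 pairs of materials and found in none. For Plaur these were NRCWE-025 at 18 µg (0.14 and -0.57) and 162 µg (0.64 and -0.36), and NRCWE-030 at 54 µg (0.68 and -0.09). For Plat they were NRCWE-030 at 18 µg (0.38 and -0.21) and 54 µg (0.20 and -0.21). For Tfpi they were NRCWE-025 at 18 µg (0.16 and -0.22) and 162 µg (0.11 and -0.14). The differences at 18 and 54 µg were not tested. Those at 162 µg were tested in limma, with adjusted p of 0.082 for Plaur and 0.54 for Tfpi. All pairs of a gene share the same vehicle means, and the share of such pairs over all genes was not counted. The vehicle mean itself was higher on day 28 than on day 1, by 0.51 for Plaur, 0.46 for Plat and 0.23 for Tfpi. The part of that shift in these pairs was not tested.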

How the results depend on the processing

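The call of 1 member at 162 µg of NRCWE-025 on day 1 (Plaur) became 0 with backgrounds as deposited, with no background correction, with the scanner's ratios, with the authors' ratios, when a fixed block was set for slide or for scan day, and in 1 fit of all 14 groups, and 0 to 1 when 1 array was left out. At 162 µg of NRCWE-030 on day 1 the 0 members called became 1 with backgrounds as deposited, no background correction, the scanner's ratios, the authors' ratios, the brightest probe or dim probes left out, and 2 with slide as a random block or in 1 fit of all groups. Leaving out 1 array gave 0 to 2. Other counts of 0 became 1 with slide as a random block (dose test of NRCWE-025 on day 1, and NRCWE-030 at 162 µg on day 28) and in 1 fit of all groups (NRCWE-030 at 54 µg on day 1). Between the days for NRCWE-025, 1 member was called with the scanner's ratios, slide fixed, scan day fixed, slide random or the brightest probe, and 0 to 1 when 1 array was left out. For vehicle lungs 2 were called with scan day fixed. The cause was not tested. No called value changed sign, while 93 uncalled values did under other settings and 97 when 1 array was left out. No paired analysis was possible because the replicate numbers were given in accession order and name samples only, and lungs are tied to each other just by slide and scan day, which were used as blocks.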
